A study of Homo sapiens with 8 samples.

Results

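Glycolysis and hypoxia genes were followed in HuCCT1, a human intrahepatic cholangiocarcinoma cell line, after knockdown of BEX2. The 10 members were SLC2A1, HK2, PFKFB3, PFKFB4, PGK1, LDHA, PDK1, CA9, VEGFA and ADM. They were picked by name, with earlier results of these data known, and the brightest probe of each stood for its gene. All 10 were on the array, which held 34809 gene names, and 9 of them were among the 20343 genes that passed the filter on dim probes. CA9 did not pass it.

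The cells carried 1 of 4 retroviral short hairpin RNA vectors, with 2 arrays each. The vectors shControl and shNontarget were the controls (4 arrays), and shBEX2-1 and shBEX2-2 were the BEX2-knockdown sublines (4 arrays). All cells had therefore received a vector. The study describes its control as a hairpin against luciferase without saying which of the 2 control vectors it was. As printed in its methods, the target sequences of both BEX2 hairpins overlap as reverse complements, so that the sublines do not stand for separate target sites. Whether replicate arrays hold separate cultures is not stated, so p-values measure the spread between arrays, which may be technical. All 8 arrays lay on 1 slide, the control arrays in row 1 and the knockdown arrays in row 2, so that slide position and group cannot be told apart. Levels are log2 processed intensity minus the array's 75th percentile. These are called normalized log2 intensities below, and they are compared between arrays for 1 probe and not between probes.

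Cells take up glucose through transporters such as SLC2A1, trap it by hexokinase, and break it down through the glycolytic enzymes to pyruvate. Lactate dehydrogenase then turns pyruvate into lactate, or pyruvate dehydrogenase passes it to the mitochondria. Under low oxygen, hypoxia-inducible factors (HIF) bind a short DNA motif and raise many of these genes, together with genes of pH control and blood vessel growth. Many tumours keep this program partly on in the presence of oxygen.

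The core of the motif bound by HIF reads ACGTG or GCGTG. It was looked for on both strands of the 250 bases before each start in RefSeq's promoter windows (GRCh38.p14), where 9 of the 10 members, all but VEGFA, had 13 windows. The core was in 11 of the 13 windows (84.6%), against 43.2% of all 35116 windows, and its ACGTG form was in 7 (53.8%) against 18.5%. At least 1 window of 8 of the 9 genes held it, and SLC2A1 was the exception. HK2, PDK1, PFKFB3 and LDHA had 2 windows each. The members were picked by name as glycolysis and hypoxia genes, so their share does not come from an independent choice of genes. Below are 4 windows, chosen for the lactate-forming enzyme, for 2 glycolytic genes whose levels are described with it, and for the member that was not detected. Capitals mark every match on either strand, and each stretch is given in the direction of its gene, the plus strand in all 4. CACGTG, which is in 6.34% of all windows, reads as ACGTG on both strands and counts as 2 matches.
LDHA, first of 2 windows, chr11:18394313-18394562: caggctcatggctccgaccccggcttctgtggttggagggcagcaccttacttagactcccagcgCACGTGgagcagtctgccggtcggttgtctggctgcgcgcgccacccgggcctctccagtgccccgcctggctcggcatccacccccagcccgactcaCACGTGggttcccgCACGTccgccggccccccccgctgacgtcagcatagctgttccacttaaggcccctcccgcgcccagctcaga
PGK1, chrX:78103998-78104247: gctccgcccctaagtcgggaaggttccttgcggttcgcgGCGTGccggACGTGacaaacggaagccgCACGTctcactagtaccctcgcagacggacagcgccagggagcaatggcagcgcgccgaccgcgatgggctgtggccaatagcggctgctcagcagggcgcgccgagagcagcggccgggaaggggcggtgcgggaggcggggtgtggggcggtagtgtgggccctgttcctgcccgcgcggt
PFKFB3, second of 2 windows, chr10:6202682-6202931: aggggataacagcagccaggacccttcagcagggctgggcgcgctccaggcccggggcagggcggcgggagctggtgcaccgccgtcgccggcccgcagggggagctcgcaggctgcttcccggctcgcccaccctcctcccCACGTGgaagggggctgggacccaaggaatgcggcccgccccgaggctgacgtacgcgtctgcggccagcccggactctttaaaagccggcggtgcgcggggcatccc
CA9, chr9:35673678-35673927: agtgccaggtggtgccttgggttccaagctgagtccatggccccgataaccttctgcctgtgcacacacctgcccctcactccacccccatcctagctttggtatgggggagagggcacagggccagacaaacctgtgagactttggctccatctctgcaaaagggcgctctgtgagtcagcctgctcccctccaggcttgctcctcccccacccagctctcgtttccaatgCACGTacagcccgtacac
The LDHA window shown held 5 matches, from 2 copies of CACGTG and 1 further core, and the other LDHA window held 1, of the GCGTG form. PGK1 held 3, the PFKFB3 window shown 2 from 1 copy of CACGTG (1 in its other window), and CA9 held 1 close to its start. A match describes the letters only, and binding was not measured.

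BEX2, the targeted gene, had an intensity of 71.0 and 55.7 on the shControl arrays and 115 and 48.8 on the shNontarget arrays. It was 11.9 and 11.1 in shBEX2-1, not well above background on either array, and 20.4 and 26.0 in shBEX2-2. Its log2 fold change over all 4 knockdown arrays was -1.63 ± 0.32 (SE), with an adjusted p of 0.0116. Against both control vectors (limma), the log2 fold change was -1.94 ± 0.37 in shBEX2-1, with an adjusted p of 0.0337. In shBEX2-2 it was -1.32 ± 0.37 with an adjusted p of 0.0815, which missed the threshold used below. The replicates of shNontarget stood apart from the others: 34.8% of the genes differed by over 1 on the log2 scale between them, against 0.546% to 1.72% in the other 3 vectors. Spots well above background made up 59.8% to 64.6% per array, and none was saturated. All 7 biliary epithelial markers, KRT7 and KRT19 among them, were well above background on all 8 arrays, whereas ALB and TTR of hepatocytes, COL1A2, COL3A1 and PDGFRB of fibroblasts, PECAM1 of endothelium and CD3E of lymphocytes were so on none. CD14 and CD68 of leukocytes, CDH5 and VWF of endothelium, COL1A1 and SERPINA1 were well above background on all 8. PTPRC of leukocytes was so on 7 arrays, and APOA1 of hepatocytes on 6.

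Of the 9 members tested, LDHA rose and VEGFA fell when the 4 knockdown arrays were compared with the 4 control arrays (limma, Benjamini-Hochberg adjusted p under 0.05). This was 2 of 9, beside 2627 of all 20343 genes (12.9%). The background was 6.67% for genes that rose and 6.24% for genes that fell. The median log2 fold change of the 9 was 0.098, beside 0.027 for all genes, and 7 of the 9 values were above 0. Their log2 fold changes spanned most of the range of all genes: VEGFA lay above 0.801% of them, and LDHA above 96.8%. In 3 members, LDHA, VEGFA and PFKFB3, no knockdown array overlapped the control arrays, which was so for 22.2% of all genes.

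**Figure D1:**
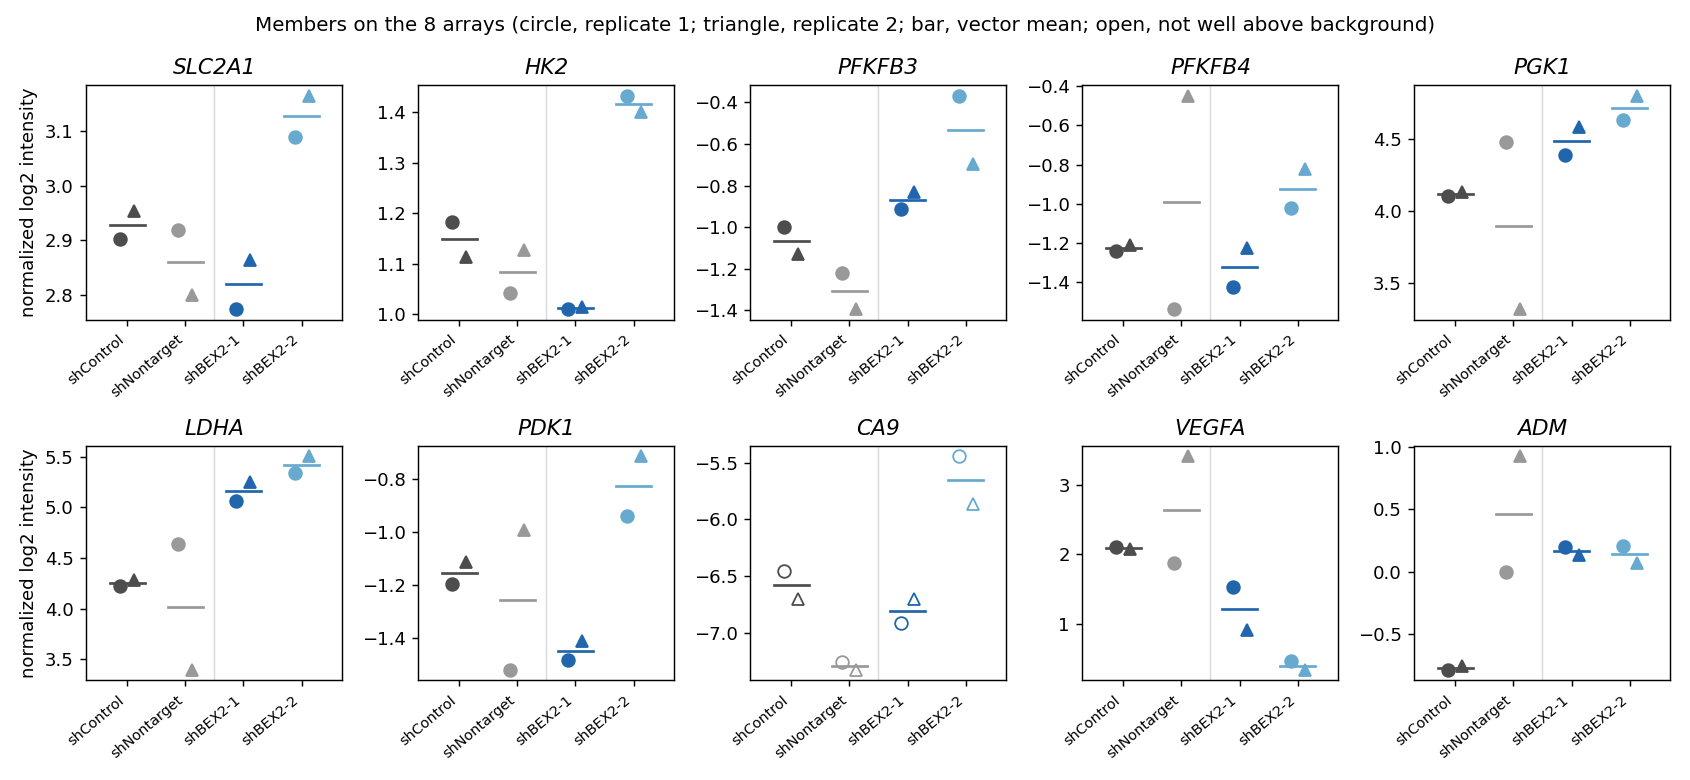
Normalized log2 intensity of the brightest probe of each member on the 8 arrays, by vector, with bars at the mean of 2 arrays and open symbols for spots not well above background. LDHA ranged from 5.06 to 5.50 in the knockdown arrays and from 3.40 to 4.64 in the controls, and the triangle of shNontarget (replicate 2) lies far from its circle for LDHA, PGK1, VEGFA and PFKFB4.

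LDHA encodes the lactate dehydrogenase subunit that favours lactate formation. Its normalized log2 intensity was 4.23 and 4.28 in shControl, 4.64 and 3.40 in shNontarget, 5.06 and 5.25 in shBEX2-1, and 5.34 and 5.50 in shBEX2-2. Every knockdown array was above every control array, and the lowest control value was that of shNontarget replicate 2. LDHA rose 2.22-fold, a log2 fold change of 1.15 ± 0.25 (SE) with an adjusted p of 0.0182. The two-sided exact permutation test gave p = 0.0286, the smallest that 4 arrays against 4 can give. In bulk RNA, a larger share of cells that make the transcript and more transcript per cell cannot be told apart. The probe lies at chr11:18428789-18428848 of hg19, the build of the array design. The design places a dimmer LDHA probe at chr9:14921817-14921876, and RefSeq lists a pseudogene, LDHAP4, on chromosome 9. That probe ranged from 2.69 to 3.35 in the knockdown arrays and from 1.40 to 2.86 in the controls, and its arms overlapped.

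VEGFA encodes the vascular endothelial growth factor that drives vessel growth, and it moved the other way. Its normalized log2 intensity was 2.10 and 2.07 in shControl, 1.88 and 3.42 in shNontarget, 1.53 and 0.91 in shBEX2-1, and 0.45 and 0.33 in shBEX2-2. All knockdown arrays were below all control arrays, shBEX2-2 being the lowest and shNontarget replicate 2 the highest. VEGFA fell 2.95-fold, a log2 fold change of -1.56 ± 0.37 (SE) with an adjusted p of 0.0262 and an exact two-sided permutation p of 0.0286. The design gives this probe no position. The other VEGFA probe, at chr6:43753511-43753570 of hg19, ranged from 0.12 to 1.77 in the controls and from -1.79 to -0.92 in the knockdown arrays, with a difference of -1.99, and its arms did not overlap either.

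Both calls depended on single arrays. Without shNontarget replicate 2 the log2 fold change was 0.90 ± 0.15 for LDHA (adjusted p = 0.00611) and -1.21 ± 0.27 for VEGFA (adjusted p = 0.0175). Without shControl replicate 1, shBEX2-2 replicate 1 or shBEX2-2 replicate 2, neither was called, with adjusted p-values between 0.0512 and 0.0873. Without shControl replicate 2 or shBEX2-1 replicate 2, LDHA alone was called (adjusted p = 0.0460 and 0.0486), and VEGFA had 0.0542 and 0.0611. Against shControl alone, 4 of the 9 members were called, beside 33.5% of all genes, whereas against shNontarget alone none was, beside 1.71%, and LDHA then had an adjusted p of 0.118. Without shNontarget replicate 1, LDHA, VEGFA and PGK1 were called, beside 23.1% of all genes. Without replicate 2, LDHA, VEGFA and ADM were, beside 21.1%.

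**Figure D2:**
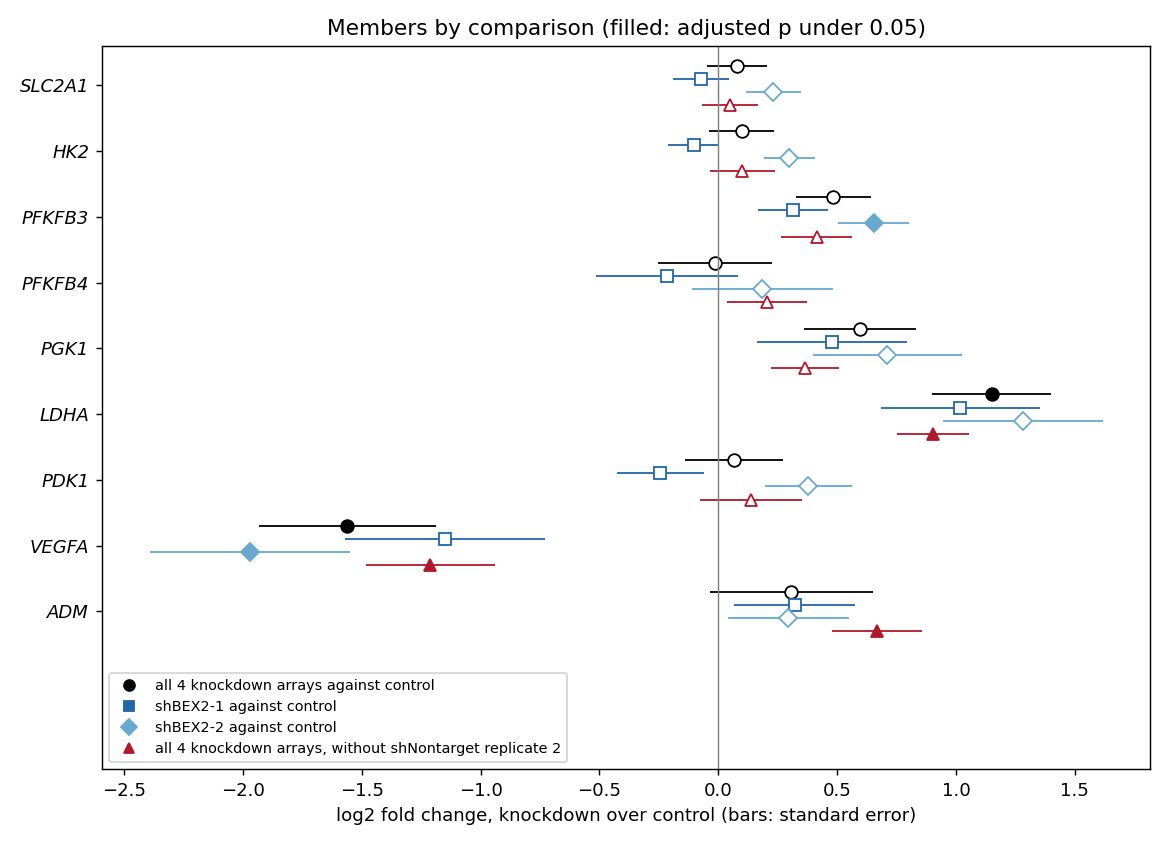
Log2 fold change of the 9 tested members (bars: SE) over all 4 knockdown arrays, in each subline against both control vectors, and over all knockdown arrays without shNontarget replicate 2, with filled symbols for an adjusted p under 0.05. LDHA lies near 1.15 and VEGFA near -1.56, and the value of ADM is 0.31 with and 0.67 without that array.

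The members of glucose entry, SLC2A1 and HK2, were not called. SLC2A1, the main glucose transporter of many tumour cells, was 2.90 and 2.95 in shControl, 2.92 and 2.80 in shNontarget, 2.77 and 2.86 in shBEX2-1, and 3.09 and 3.16 in shBEX2-2. Its log2 fold change was 0.08 ± 0.13 (adjusted p = 0.740). HK2, the inducible hexokinase, was 1.18 and 1.11 in shControl, 1.04 and 1.13 in shNontarget, 1.01 on both shBEX2-1 arrays, and 1.43 and 1.40 in shBEX2-2. For both genes the shBEX2-2 arrays were the highest of all 8 and overlapped no other vector. HK2 had a log2 fold change of 0.10 ± 0.14 (adjusted p = 0.699). Its probe is placed at chrX:79825025-79825084 of hg19, although the RefSeq start of HK2 is on chromosome 2, and RefSeq lists a pseudogene, HK2P1, on X, so that its source is uncertain. The other HK2 probe never stood well above background.

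PFKFB3 and PFKFB4 make fructose 2,6-bisphosphate, the activator of phosphofructokinase, and break it down. PFKFB3 was -1.001 and -1.13 in shControl, -1.22 and -1.39 in shNontarget, -0.91 and -0.83 in shBEX2-1, and -0.37 and -0.70 in shBEX2-2. The order of the 4 vectors had no overlap between neighbours, with shNontarget lowest and shBEX2-2 highest. The log2 fold change was 0.48 ± 0.16 and missed the threshold in the 4 against 4 fit (adjusted p = 0.0779). The exact permutation test gave an unadjusted p = 0.0286, its value for any gene whose arms do not overlap, as in 22.2% of all genes. With the spread taken within the 4 vectors, the adjusted p from limma was 0.0487, and over 22 alternatives it was up to 0.211. A dimmer PFKFB3 probe was well above background on 3 arrays, all of them knockdown arrays. PFKFB4 ranged from -1.42 to -0.82 in the knockdown arrays and from -1.54 to -0.45 in the controls, and both of the latter extremes were shNontarget arrays. Its log2 fold change was -0.01 ± 0.24.

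PGK1, which makes ATP in the lower part of glycolysis, was measured by 10 spots per array whose log2 values had an SD between 0.030 and 0.096. It was 4.10 and 4.13 in shControl, 4.48 and 3.32 in shNontarget, 4.39 and 4.58 in shBEX2-1, and 4.64 and 4.80 in shBEX2-2. The arms overlapped through shNontarget replicate 1, which was above 1 knockdown array. The log2 fold change was 0.60 ± 0.24 (adjusted p = 0.138), 0.75 ± 0.21 without shNontarget replicate 1 (adjusted p = 0.0343), and 0.37 ± 0.14 without replicate 2 (adjusted p = 0.106). The gap between the shNontarget arrays, 1.16, was over 10 times the spot SD on any array.

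PDK1 encodes a kinase that switches pyruvate dehydrogenase off. It was -1.20 and -1.11 in shControl, -1.52 and -0.99 in shNontarget, -1.48 and -1.41 in shBEX2-1, and -0.94 and -0.71 in shBEX2-2. The shBEX2-2 arrays were the highest, and those of shBEX2-1 were below both shControl arrays. Over all 4 knockdown arrays the log2 fold change was 0.07 ± 0.21 (adjusted p = 0.871).

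CA9, a membrane carbonic anhydrase and widely used hypoxia marker, stood well above background nowhere, with intensities between 3.65 and 14.2. No fold is given for it.

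ADM encodes adrenomedullin, a vasodilator peptide, and was also measured by 10 spots. It was -0.79 and -0.75 in shControl, -0.01 and 0.93 in shNontarget, 0.20 and 0.13 in shBEX2-1, and 0.21 and 0.07 in shBEX2-2. The knockdown arrays lay close together, above both shControl arrays and between the shNontarget arrays. The log2 fold change was 0.31 ± 0.34 (adjusted p = 0.615) against all controls, 0.92 ± 0.08 against shControl alone (adjusted p = 0.000378) and -0.31 ± 0.26 against shNontarget alone (adjusted p = 0.587). Without shNontarget replicate 2 it was 0.67 ± 0.19 (adjusted p = 0.0424).

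The sublines were then set one by one against the mean of both control vectors, in a model with the 4 vectors and 1 shared spread. The comparisons share their control arrays. In shBEX2-1, 0 of the 9 members were called, beside 1428 genes called (7.02%). An unadjusted p under 0.05 was reached there by 2 members, beside 4637 of all genes. In shBEX2-2, PFKFB3 rose 1.57-fold (log2 0.65 ± 0.15, adjusted p = 0.0450) and VEGFA fell 3.92-fold (log2 -1.97 ± 0.42, adjusted p = 0.0370), beside 9.71% of all genes. With the replicate number as a block these adjusted p-values were 0.0572 and 0.0651. LDHA had a log2 fold change of 1.02 ± 0.34 in shBEX2-1 (adjusted p = 0.140) and 1.28 ± 0.34 in shBEX2-2 (adjusted p = 0.0698).

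These subline counts changed when 1 array was left out. In every fit that left out an array other than those of shNontarget, fewer of all genes were called in shBEX2-2 as well. Without any 1 of the 6 arrays that were not shNontarget, the calls of PFKFB3 and VEGFA in shBEX2-2 were lost, with adjusted p-values between 0.110 and 0.427 for PFKFB3 and between 0.0823 and 0.279 for VEGFA. Without shNontarget replicate 1, 6 members were called in each subline, beside 53.0% of all genes in shBEX2-1 and 51.6% in shBEX2-2. Without replicate 2, 3 members were called in shBEX2-1, beside 52.7%, and all 9 in shBEX2-2, beside 54.6%. LDHA and VEGFA were called in both sublines in these fits, in which the remaining shNontarget array is assumed to vary like the other vectors. The members of shBEX2-2 without replicate 2 had log2 fold changes between 0.20 (SLC2A1) and 0.97 (LDHA), apart from VEGFA at -1.59.

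Between the sublines, 0 of the 9 members were called, beside 0.00983% of all genes. An unadjusted p under 0.05 was reached by 2 members, HK2 and PDK1, beside 1486 of all genes. PDK1 was 0.62 ± 0.21 higher in shBEX2-2 on the log2 scale (adjusted p = 0.526), HK2 0.40 ± 0.12 (adjusted p = 0.449) and VEGFA 0.82 ± 0.49 lower (adjusted p = 0.916). The spread in this fit is shared with the shNontarget arrays. Without shNontarget replicate 1, at the same log2 differences, 5 members were called, SLC2A1, HK2, PFKFB4, PDK1 and VEGFA, beside 14.5% of all genes. Without replicate 2, 4 were called, all of these but PFKFB4, beside 14.9%. Between the control vectors no gene was called (0%), with 1553 genes and 1 member, ADM, at an unadjusted p under 0.05. ADM was 1.23 ± 0.29 higher in shNontarget (adjusted p = 0.405). Within shNontarget, replicate 2 was below replicate 1 by 1.24 for LDHA and 1.16 for PGK1, and above it by 1.54 for VEGFA, 1.09 for PFKFB4, 0.93 for ADM and 0.53 for PDK1. In the other 3 vectors the replicates of a tested member differed by at most 0.62.

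To place the members in their pathways, 133 genes in 10 lists were counted, members included. Of these, 108 were tested and 26 were called (24.1%), 14 higher and 12 lower in the knockdown arrays, beside 12.9% of all genes. The lists were chosen with earlier results of these data known, so their share does not come from an independent choice of genes. Of the 25 genes that were not tested, 23 were nowhere well above background, LDHB, PDK4 and EGLN3 among them.

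Among 14 tested enzymes from glucose phosphate to pyruvate, PGK1 included, PFKP, a phosphofructokinase, was the 1 that rose, and none fell. Their median log2 fold change was 0.47, beside 0.027 for all genes. On shNontarget replicate 2, GPI, ALDOA, ALDOC, TPI1, GAPDH, PGK1, PGAM1, ENO1 and PKM had their lowest value of all 8 arrays. PFKM, ENO2 and ENO3 had their highest control value there. The list median was not computed without that array. PFKP ranged from 3.60 to 3.65 in the controls and from 3.91 to 4.16 in the knockdown arrays, with a log2 fold change of 0.41 ± 0.11 (adjusted p = 0.0485). That call was lost in 13 of 22 alternatives, with an adjusted p of up to 0.265. TPI1 (0.61), PGAM1 (0.54), PKM (0.53), GPI (0.55) and ENO2 (0.74) had positive log2 fold changes that missed the threshold, and PFKL had -0.52 (adjusted p = 0.0678). Of 8 genes of glucose entry and phosphorylation, HKDC1, a hexokinase-like protein, fell (log2 -0.75 ± 0.16, adjusted p = 0.0185) and none rose. SLC2A3, a further glucose transporter, had -1.09 ± 0.43 (adjusted p = 0.137). The third tested PFKFB gene, PFKFB2, had -0.12 (adjusted p = 0.728).

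**Figure D3:**
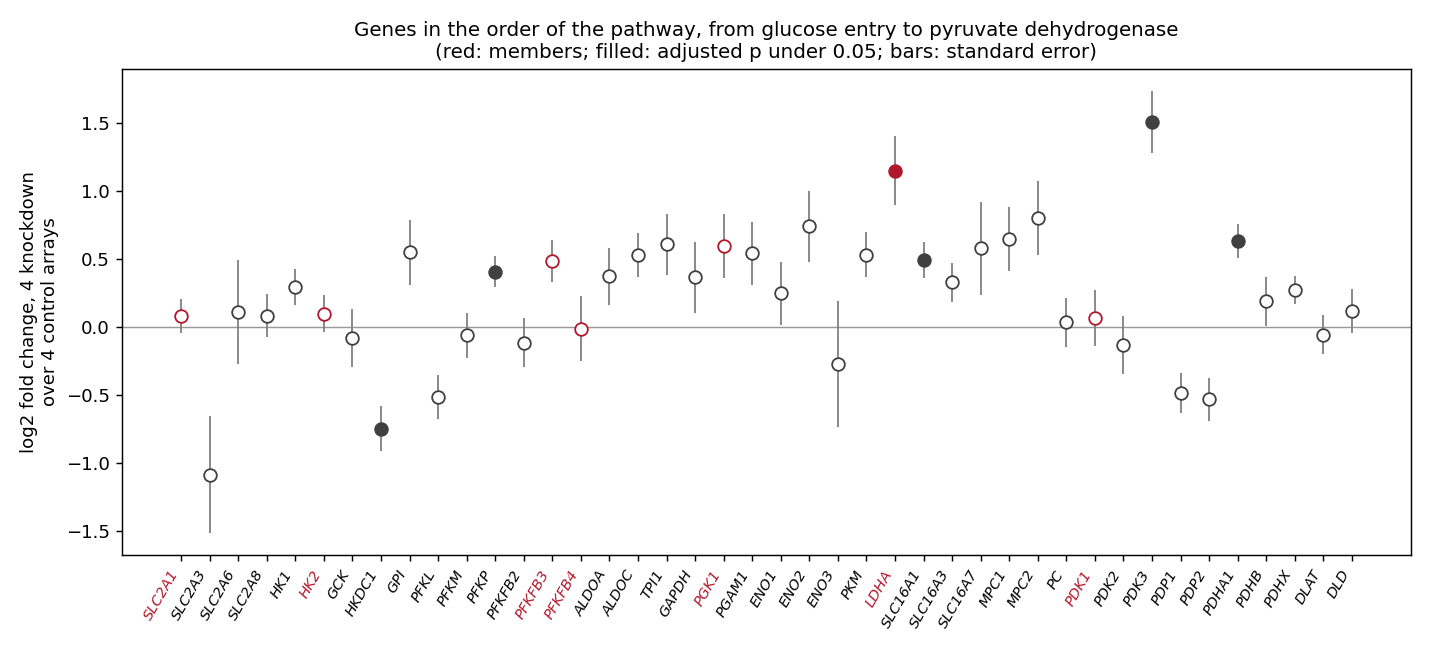
Log2 fold change of all tested genes of the first 4 lists over 4 knockdown and 4 control arrays (bars: SE), in the order of the pathway from glucose entry to pyruvate dehydrogenase, with members in red and filled symbols for an adjusted p under 0.05. PDK3 at 1.51 and LDHA at 1.15 are the highest, and SLC2A3 at -1.09, not called, and HKDC1 at -0.75 are the lowest.

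Of 17 tested genes of lactate and pyruvate fate, 4 rose and none fell, with a median of 0.27. Beside LDHA these were PDK3, PDHA1 and SLC16A1. PDK3, a further kinase of pyruvate dehydrogenase, was -3.65 and -3.75 in shControl, -3.40 and -4.06 in shNontarget, -2.66 and -2.34 in shBEX2-1, and -2.04 and -1.79 in shBEX2-2, with no overlap between arms. Its log2 fold change was 1.51 ± 0.23 (adjusted p = 0.00421), and it was called in each subline (adjusted p = 0.0366 and 0.00943). PDHA1, a subunit of pyruvate dehydrogenase itself, had 0.63 ± 0.13 (adjusted p = 0.0125). SLC16A1, a lactate transporter, had 0.50 ± 0.13 (adjusted p = 0.0406), and lost the call in 9 of 22 alternatives. PDK2, in contrast, had -0.14 (adjusted p = 0.736).

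Of 9 genes of gluconeogenesis and glycogen, 2 rose and 2 fell. PCK2, the mitochondrial phosphoenolpyruvate carboxykinase, ranged from -0.48 to 0.02 in the controls and from -2.27 to -1.47 in the knockdown arrays, and fell by 1.56 on the log2 scale (adjusted p = 0.00224). PYGL, the liver glycogen phosphorylase, rose by 1.02 (adjusted p = 0.00373), and GBE1, the glycogen branching enzyme, by 0.66 (adjusted p = 0.0285), whereas the brain form PYGB fell by 0.45 (adjusted p = 0.0387). The call was lost in 8 of 22 alternatives for GBE1 and in 9 for PYGB. None of 8 genes of the pentose phosphate branch was called.

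Of 9 tested HIF subunits and oxygen sensors, 1 rose and 2 fell. EPAS1, which encodes the HIF-2 alpha subunit, was 2.27 and 2.34 in shControl, 2.68 and 2.28 in shNontarget, 0.28 and 0.61 in shBEX2-1, and 0.77 and 0.76 in shBEX2-2. The arms were far apart, and the replicates of shNontarget were close together beside this difference. EPAS1 fell 3.45-fold (log2 -1.79 ± 0.15, adjusted p = 0.000697), and it fell in each subline (adjusted p = 0.00655 and 0.00424). ARNT2, a partner subunit, fell by 0.74 (adjusted p = 0.00654). EGLN1, the prolyl hydroxylase that marks HIF for degradation in oxygen, rose by 0.54 (adjusted p = 0.0413), and lost the call in 10 of 22 alternatives. HIF1A had 0.11 ± 0.14 (adjusted p = 0.643), and VHL, which carries HIF to degradation, had -0.14 ± 0.36 (adjusted p = 0.844). VHL was 3.40 and 5.44 on the shNontarget arrays and between 4.23 and 4.52 on the other 6.

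Of 26 other hypoxia-induced genes, 4 rose and 3 fell, with a median of 0.10. LOX and PLOD2, which crosslink and hydroxylate collagen lysines, rose by 1.24 (adjusted p = 0.0208) and 1.11 (adjusted p = 0.00282). The others that rose were HILPDA (0.73), a lipid droplet protein, and ERO1A (0.71), an oxidase of the endoplasmic reticulum, which lost the call in 8 and 9 of 22 alternatives. BHLHE40, a transcriptional repressor, fell by 1.22 (adjusted p = 0.00647), and DDIT4, an inhibitor of mTOR signalling, fell by 0.87 (adjusted p = 0.0135). Of 4 tested genes of pH control, CA2, a cytosolic carbonic anhydrase, rose by 1.20 (adjusted p = 0.0193).

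Of 10 angiogenic ligands and receptors, 4 fell and 1 rose, VEGFA included. ADM2, the ADM-related peptide intermedin, was -0.30 and -0.42 in shControl, 0.06 and 0.07 in shNontarget, -1.44 and -1.63 in shBEX2-1, and -2.83 and -2.94 in shBEX2-2. It fell by 2.06 (adjusted p = 0.00677), with no overlap between any knockdown and any control array and the lowest values in shBEX2-2. NRP1, a co-receptor of VEGF, fell by 0.77 (adjusted p = 0.00515) and VEGFB by 0.46 (adjusted p = 0.0356). VEGFC, the lymphatic growth factor, rose by 0.45 (adjusted p = 0.0437). The call was lost in 8 of 22 alternatives for VEGFB and in 11 for VEGFC.

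**Figure D4:**
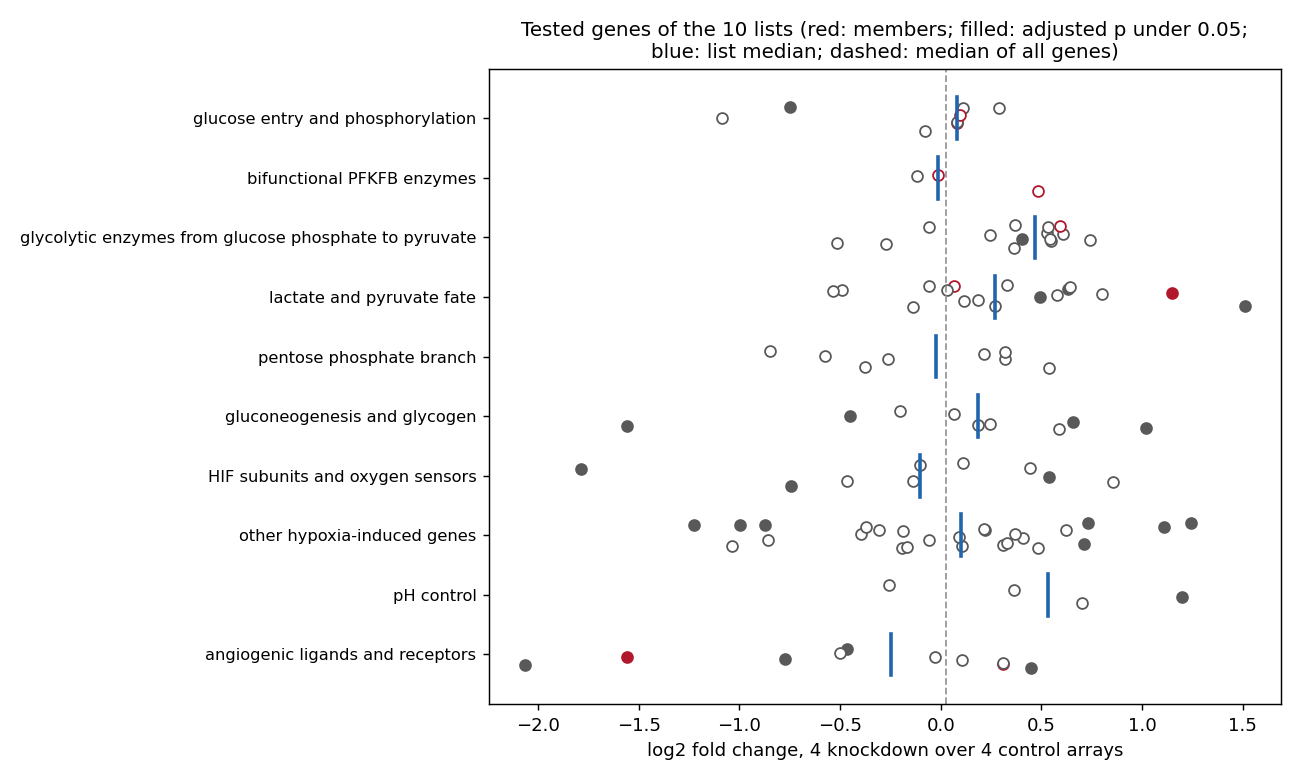
Log2 fold change over 4 knockdown and 4 control arrays of the tested genes of 10 lists, with members in red, filled symbols for an adjusted p under 0.05, blue bars at list medians and a dashed line at the median of all genes, 0.027. The list of enzymes from glucose phosphate to pyruvate has a median of 0.47 with 1 gene called, and called genes lie on both sides of 0 in the lists of HIF subunits, other hypoxia-induced genes and angiogenic genes. Several of the enzymes from glucose phosphate to pyruvate, such as GPI and TPI1, were lowest on shNontarget replicate 2.

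The mean of the 9 tested members, each centred on its own mean, was between -0.13 and 0.08 on the control arrays, -0.04 and -0.02 in shBEX2-1, and 0.15 and 0.17 in shBEX2-2. Over the 8 arrays, the non-member genes whose pattern was most like this mean were SLC41A1, ZBTB7B and JPH1 (Pearson r = 0.992, 0.991 and 0.990 among 20318 genes). These values describe the 8 arrays, which share 1 slide and 1 scaling.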

How the data were processed

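RNA of HuCCT1 cells was labelled with Cy3 and hybridized by the authors to 8 Agilent arrays (design 028004), read with Feature Extraction 10.7.3.1 per the labels. The deposited processed intensity is background-subtracted and detrended by that software without scaling across arrays, and a deposited table of all samples differed from it by at most 0.497% per spot. Control and non-uniform spots were left out. After log2, the 75th percentile of the array was subtracted. Kept probes stood well above background on 4 or more arrays, and the brightest stood for its gene.

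All 20343 genes were fitted in R 4.3.3 with limma 3.58.1 (lmFit, eBayes with trend) and Benjamini-Hochberg adjustment at 0.05. The methods' Rank Product was not run. Single members were also tested by the exact permutation test over 8 arrays (70 relabellings, scipy 1.17.1). Deviations of same-numbered replicates correlated between -0.0641 and 0.261 across vectors, and file names carry 1 day per replicate number, so a replicate block was an alternative. Others were background correction, normalization, filter, probe choice, control vector, single arrays left out, the methods' t-test, and vector as a random block. The 4 against 4 fit was also tried on simulated data. The simulated noise was independent and had 1 spread per gene on all arrays. It therefore did not cover the subline fits or the wide gap within shNontarget. The number of arrays limits the precision.

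Members and lists were chosen with earlier results of these data known. By rule, each list named up to 4 called genes of largest change, with BEX2, HIF1A, EPAS1, EGLN3, VHL and the 3 genes most like the members' mean. Other list genes named were chosen after their values were seen. The values of 1 list gene that fell are not reported here.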

Additional observations from a re-analysis of the deposited data

Results flagged for a closer look

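VEGFA on the control arrays had 1 array far from the other 3: shNontarget replicate 2 was 3.42, beside 1.88 to 2.10, and this gap was 0.853 of the whole range, above Dixon's critical value. Of 18 groups of 4 arrays looked at (9 members, 2 arms), it was the 1 that passed, and chance flags about 1 in 20 such groups.

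For 4 members, both arrays of one subline lay below the mean of the control arrays and both arrays of the other above it. These were SLC2A1, HK2, PFKFB4 and PDK1, each lower in shBEX2-1. The share of all genes that meet the same rule was not computed. The difference between the sublines, shBEX2-2 minus shBEX2-1, was 0.31 for SLC2A1, 0.40 for HK2, 0.40 for PFKFB4 and 0.62 for PDK1 on the log2 scale. With all 8 arrays, limma called none of the 4 differences (adjusted p = 0.732, 0.449, 1 and 0.526). The shNontarget arrays are not part of this comparison but of the shared spread. Without their replicate 1, all 4 were called (adjusted p = 0.0296, 0.00964, 0.0496 and 0.0091), beside 14.5% of all genes. Without their replicate 2, all but PFKFB4 were (adjusted p = 0.0291, 0.00932, 0.0501 and 0.00901), beside 14.9%. The 4 members were picked by the gap between the sublines, so these calls do not come from an independent choice of genes.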

How the results depend on the processing

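Of the 9 members tested, 2 were called over all 4 knockdown arrays, beside 2627 of all genes. With shControl alone as control 4 were called, beside 6810 of all genes, and with shNontarget alone 0, beside 347. The methods' t-test after adjustment called 0 members, beside 2162 genes, and fits with single arrays left out called between 0 and 3 members. The count of 2 in shBEX2-2 stood beside 1975 of all genes. It was 1 with a minimum log2 fold change of 1 (1124 of all genes), normexp (1839), quantile normalization (2208) or no filter on dim probes (1536). It was 0 with the replicate block (1587 of all genes), shControl alone (1510) or shNontarget alone (1263). With single arrays of the other vectors left out it was between 0 and 9 in shBEX2-2, 0 and 6 in shBEX2-1, and 0 and 5 between the sublines. Between the control vectors the range is not given, since a fit without 1 of their arrays leaves a vector with 1 array. The cause of these changes in count was not tested.

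PFKFB4 changed sign to 0.014 with normexp, 0.10 against shControl alone, 0.20 without shNontarget replicate 2, 0.085 without shBEX2-1 replicate 1 and 0.018 without replicate 2 of it, and its lowest value was -0.16, without shNontarget replicate 1. PDK1 changed to -0.038 without shNontarget replicate 1 and -0.074 without shBEX2-2 replicate 2 (highest 0.18), ADM to -0.31 against shNontarget alone, and VHL to 0.19 without shNontarget replicate 2 (lowest -0.49). Over 22 alternatives LDHA ranged from 0.90 to 1.32 (adjusted p 0.00109 to 0.118) and VEGFA from -1.84 to -1.21 (adjusted p 0.0127 to 0.111). In the 4 against 4 comparison, EPAS1 and PCK2 were called in all 22. HKDC1 and CA2 lost the call in 7 each, LOX in 4, PDHA1 in 3 and DDIT4 in 2. The replicate block gave 2444 genes called in all (2627 without it) and LDHA and VEGFA adjusted p-values of 0.0230 and 0.0353. Over all genes, with single arrays left out, 1237 to 4702 were called over all 4 knockdown arrays, 0 to 10777 in shBEX2-1 and 0 to 11104 in shBEX2-2. The 25 untested list genes, CA9 among them, were limited by signal over background.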
